A study of Mus musculus with 6 samples.

Results

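Collagen genes of muscle stem cells were examined in RNA sequencing libraries from satellite cells, the stem cells that lie between a muscle fibre and its basement membrane. Members were all rows of the deposited count table named by the collagen pattern, Col followed by a type number, the letter a and a chain number. This gave 44 collagen genes among 45527 named genes. Counts of 35 of them were high enough for a test, and the remaining 9 were listed by their counts alone.

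The mice of the control group carried Pax7creER, 1 floxed and 1 intact Paxbp1 allele, and the R26R-YFP reporter. The mice labelled Paxbp1-iKO carried the same Cre and reporter with both Paxbp1 alleles floxed. In both groups the lower hindlimb muscles were injured with 30 µl of cardiotoxin, a snake venom toxin that kills muscle fibres, and YFP positive cells were sorted 24 hours later. Both groups carry Pax7creER, so the controls also hold this Cre and 1 allele that it can recombine. The YFP gate takes any cell in which the reporter was switched on. Each group had 3 libraries, made by the Smart-Seq2 protocol. The labels speak of pairs of mice without tying a library to a mouse, so p-values measure the spread between these libraries. The series asks about the part of Paxbp1 when these stem cells return to the cell cycle, and the comparison of collagen genes asks how their messenger RNA differed between the groups at that time.

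Collagens are built from 3 chains wound into a triple helix, and each chain has its own gene. Fibrillar collagens assemble into the fibrils of the interstitial matrix. Type IV collagens form the sheet of the basement membrane, and type VI collagens form beaded filaments between that sheet and the fibrils. Satellite cells both rest on this matrix and make parts of it. Type VI collagen is known as a niche component that aids their self-renewal, and type V collagen as a Notch-induced ligand of the calcitonin receptor (Calcr) that helps to keep them quiescent.

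Library totals ran from 23299344 to 28016271 counts over named genes. Genes with a count numbered 24334, 20508 and 20393 in controls and 24256, 22964 and 25433 in iKO-labelled libraries. Controls 2 and 3 thus held the fewest, though their totals (27167253 and 27277555) were not low. The targeted gene went against its label: Paxbp1 had 1583, 1917 and 1592 counts in controls and 2745, 3162 and 3125 in the libraries labelled iKO. That was a log2 fold change of 0.68 ± 0.13 (SE, adjusted p = 0.00954, edgeR quasi-likelihood test). Counts cover the whole gene, and the sources used here do not name the floxed exons. A deletion inside the gene cannot be told from these values. Every direction below is therefore that of libraries labelled iKO against libraries labelled control. Satellite cell markers were abundant in all libraries, with a summed level of 8194 to 8878 CPM (counts relative to scaled library size) in controls and 11350 to 11658 in iKO-labelled libraries over 10 markers, of which 6 rose and 2 fell (8.15% of all tested genes rose and 12.3% fell). In bulk libraries such as these, fewer cells of a type and less RNA per cell cannot be told apart.

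The type V genes Col5a2 and Col5a3 fell in iKO-labelled libraries, and the type VI gene Col6a1 rose. Leaving out each library in turn ended the Col5a2 call in 4 fits and the Col5a3 call in 5. Col5a1, Col6a2 and Col6a3 were not called. Type IV genes, the core of the basement membrane, gave no call in either direction, and among fibrillar genes the lowly expressed Col27a1 rose. Outside these groups Col19a1 and Col20a1 rose while Col8a1 and Col13a1 fell. The total collagen level overlapped between groups, at 2281, 1991 and 2346 CPM in controls and 1843, 2321 and 1991 in iKO-labelled libraries.

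Of the 35 tested collagen genes, 8 passed a Benjamini-Hochberg adjusted p of 0.05 over all tested genes (22.9%, against 20.4% of the 16252 genes tested). Rises numbered 4 (11.4%, against 8.15% of all tested genes) and falls numbered 4 (11.4%, against 12.3%). These shares lie close to those of all genes. Groups did not overlap for 13 of the 35 (37.1%, against 39.8% of all tested genes), with iKO-labelled libraries above in 8 and below in 5. The median log2 fold change was 0.10 over collagens and 0.02 over all tested genes. When library totals replaced the TMM scaling, the split became 5 higher and 2 lower. The number of falls changed with a library left out, which also leaves fewer samples. It was 1 without control 1, control 3, iKO-labelled 1 or iKO-labelled 3, 2 without iKO-labelled 2 and 5 without control 2. Rises numbered 3 to 5 in these fits.

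**Figure D1:**
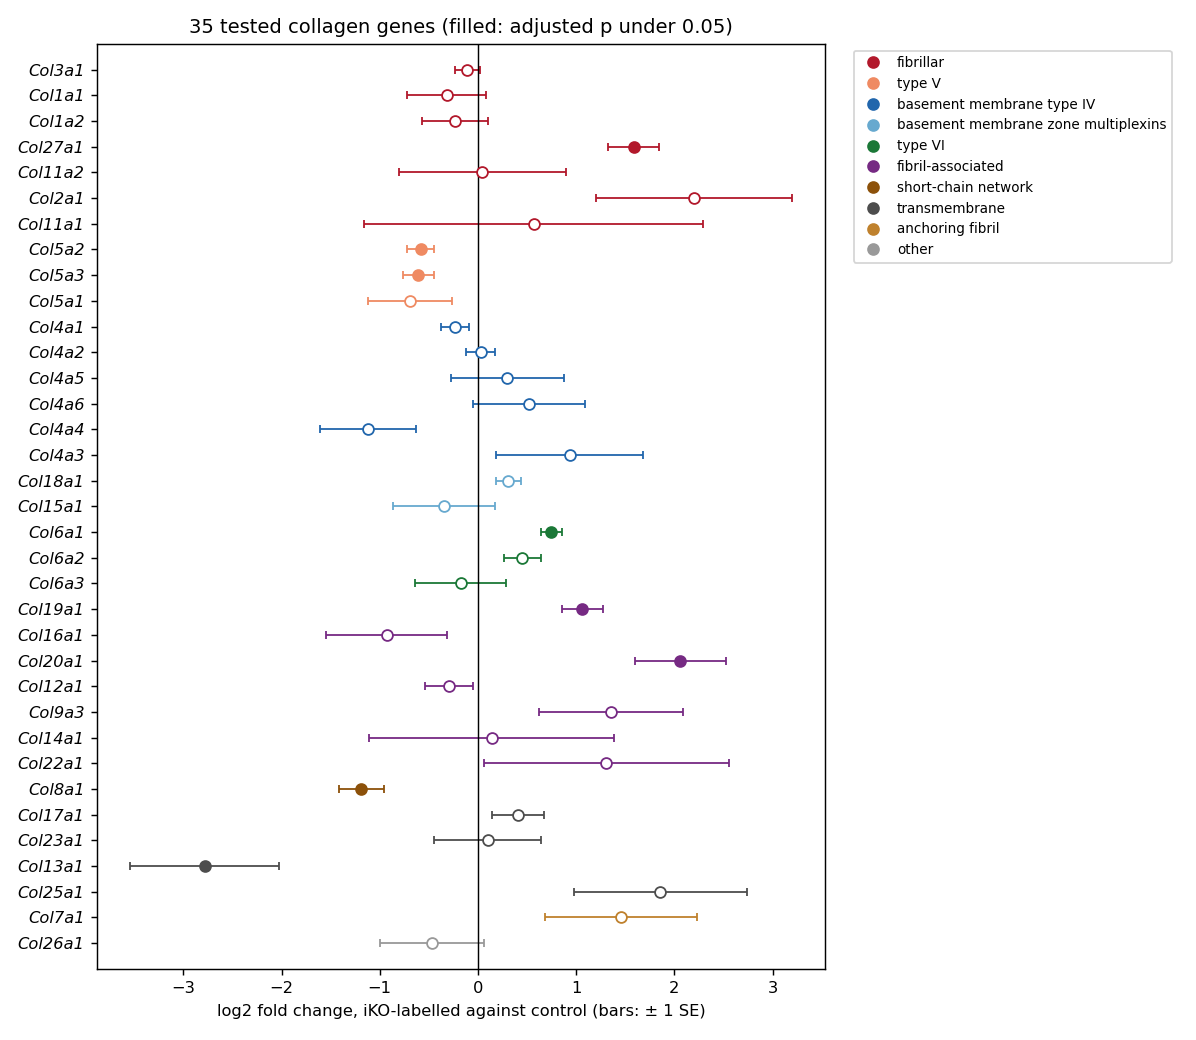
Log2 fold changes of the 35 tested collagen genes, iKO-labelled against control, with bars of 1 standard error and colours by collagen class. Filled points passed an adjusted p of 0.05: Col27a1, Col6a1, Col19a1 and Col20a1 to the right of 0, and Col5a2, Col5a3, Col8a1 and Col13a1 to the left.

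Levels between genes are compared below in the deposited FPKM, which are scaled to gene length. Each fold change and its test comes from the counts, while chain ratios, their tests and class shares come from the FPKM. Among tested collagens, 18 had a mean of at least 1 FPKM, and the 10 highest held 88.9% of the summed collagen FPKM. The length behind the FPKM was 0.913 of the annotated exonic length for Col4a1 and 0.652 for Col8a1, so the levels of those 2 genes stand higher against the others than the annotation would give. Fold changes do not depend on it.

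**Figure D2:**
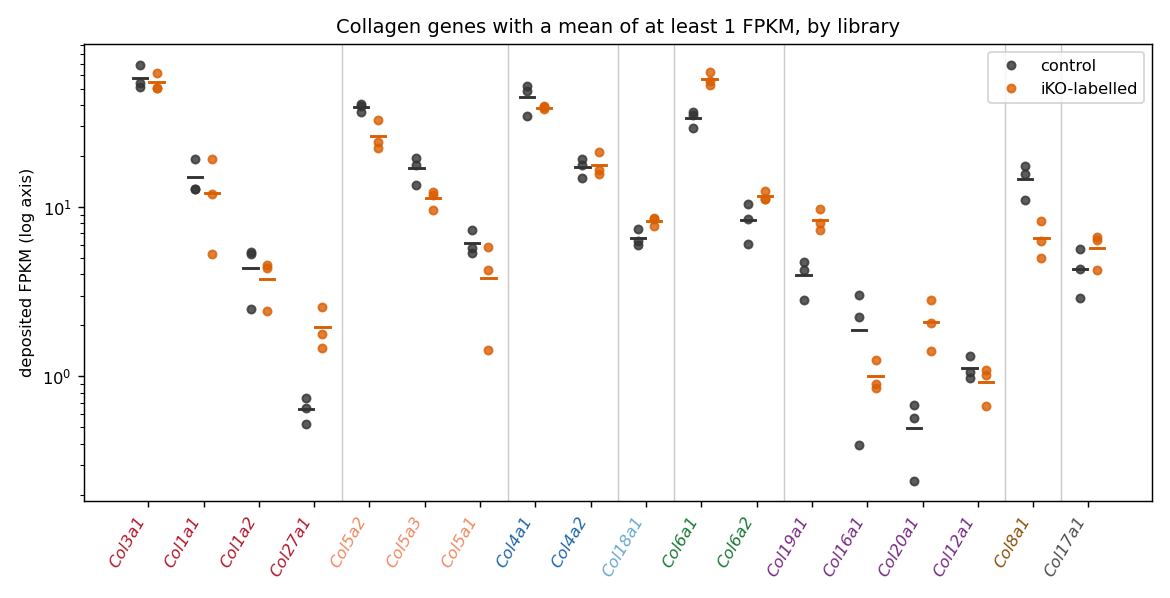
Deposited FPKM of the 18 tested collagen genes with a mean of at least 1 FPKM, on a log axis, with 1 point per library and a bar at each group's mean. Vertical lines separate the classes. Col3a1, Col4a1, Col6a1 and Col5a2 are the highest, the Col6a1 points of the iKO-labelled libraries lie above all controls, and those of Col5a2 and Col8a1 lie below.

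The 4 genes of types V and VI described as Notch targets in satellite cells, Col5a1, Col5a3, Col6a1 and Col6a2, are shown by the bases just upstream of their annotated starts, because Col5a3 fell and Col6a1 rose here. The sequences are from RefSeq on GRCm38, read 5′ to 3′ on the strand of the gene and cut where the GENCODE gene begins. Capitals mark the GC box GGGCGG, the core of the Sp factor site, on either strand (CCGCCC on the opposite one).
Col5a1: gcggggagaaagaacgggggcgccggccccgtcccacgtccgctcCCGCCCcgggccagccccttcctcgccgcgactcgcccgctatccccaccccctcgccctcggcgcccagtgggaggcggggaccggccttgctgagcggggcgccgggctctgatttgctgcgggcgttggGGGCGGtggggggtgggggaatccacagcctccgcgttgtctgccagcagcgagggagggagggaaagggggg
Col5a3: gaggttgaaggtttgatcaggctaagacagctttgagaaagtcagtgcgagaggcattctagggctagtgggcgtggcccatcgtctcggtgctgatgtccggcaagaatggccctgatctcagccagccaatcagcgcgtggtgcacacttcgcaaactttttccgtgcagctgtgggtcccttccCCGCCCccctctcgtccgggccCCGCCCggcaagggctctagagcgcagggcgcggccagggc
Col6a1: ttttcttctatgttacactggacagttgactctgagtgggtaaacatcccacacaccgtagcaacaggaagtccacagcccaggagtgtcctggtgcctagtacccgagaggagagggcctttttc
Col6a2: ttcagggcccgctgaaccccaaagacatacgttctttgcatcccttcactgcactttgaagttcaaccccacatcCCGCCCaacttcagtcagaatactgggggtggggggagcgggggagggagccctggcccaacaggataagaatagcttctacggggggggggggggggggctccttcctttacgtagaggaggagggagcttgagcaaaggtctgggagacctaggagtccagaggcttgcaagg
These lie at chr2:27886175-27886424 (plus strand) for Col5a1, chr9:20815068-20815317 (minus) for Col5a3, chr10:76726169-76726294 (minus) for Col6a1 and chr10:76623631-76623880 (minus) for Col6a2. None of these windows holds an annotated exon. The Col5a1 window was 76.4% G and C, that of Col5a3 62.8%, that of Col6a2 59.2% and that of Col6a1 51.6%. The Col5a1 and Col5a3 windows each held 2 GC boxes, the Col6a2 window held 1 and the shorter Col6a1 window held none. Col5a2, the most abundant type V gene, was not matched to a RefSeq start, so no window of it was read.

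Neither TGGGAA, the core of the site bound by the Notch effector RBPJ, nor the TATA box TATAAA occurred in these 4 windows on either strand. Over all 32851 windows of 250 bases upstream of RefSeq starts, 21.6% held TGGGAA, 32.7% held GGGCGG and 12.4% held TATAAA. Of the 35 collagen genes matched to RefSeq starts, 12 held TGGGAA, 21 held GGGCGG and 5 held TATAAA in any of their windows. These are counts of genes, which can have several windows, so they cannot be set against the shares of single windows. These are matches of letters in a short window and say nothing of binding, there or at enhancers farther away.

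Type V collagen is a minor partner of fibrils that sets where and how thick they form, and in satellite cells it is the Notch-driven Calcr ligand named above. Col5a2 was the most abundant type V gene, at 40.8, 36.5 and 39.7 FPKM in controls and 24.3, 32.5 and 22.2 in iKO-labelled libraries. All controls lay above all iKO-labelled libraries. Its level fell from 382.9 ± 24.9 to 255.5 ± 52.7 CPM (SD, n = 3 in each group), a log2 fold change of -0.58 ± 0.139 (SE, edgeR adjusted p = 0.0216). The gene lies at chr1:45374321-45503282 on the minus strand of GRCm38. The call was lost without control 1 (adjusted p = 0.0634), control 3 (0.064), iKO-labelled 1 (0.0755) or iKO-labelled 3 (0.0709), with library totals (0.0542), on log2(FPKM + 0.1) (0.0561) and on log2(FPKM + 1) without a filter (0.099).

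Col5a3, which encodes the type V chain found in fewer tissues, was at 19.4, 13.6 and 17.7 FPKM in controls and 9.59, 11.8 and 12.3 in iKO-labelled libraries. The groups again did not overlap, though control 2 came close to the upper iKO-labelled libraries. It fell from 117.8 ± 21.8 to 77.4 ± 10 CPM (log2 fold change -0.61 ± 0.16, edgeR adjusted p = 0.0322; chr9:20770050-20815067, minus strand). That call sat close to the threshold: leaving out any library but control 2 ended it, with adjusted p from 0.0644 to 0.0987, as did 6 other settings.

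Col5a1 encodes the chain present in nearly all type V trimers. Its levels were 5.35, 5.74 and 7.3 FPKM in controls and 1.43, 5.8 and 4.25 in iKO-labelled libraries. One iKO-labelled library reached the control range and another stood far below it. The log2 fold change was -0.69 ± 0.426 with an edgeR adjusted p of 0.314, and it was called lower with no count filter (adjusted p = 0.0343). The estimate moved to -0.30 without iKO-labelled 1 and to -1.13 without iKO-labelled 2. Of the 3 type V genes 2 fell (12.3% of all tested genes did), and none rose in edgeR, in DESeq2, in limma-voom or at an unadjusted p under 0.05. The median log2 fold change of type V was -0.61. Their summed level was 589.5, 500 and 572.4 CPM in controls and 314.1, 446.8 and 336.6 in iKO-labelled libraries, with no overlap.

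Type VI collagen is assembled from the chains of Col6a1 and Col6a2 with a long chain, most often that of Col6a3. Col6a1 rose, from 34.8, 29.3 and 36.4 FPKM in controls to 55.8, 62.4 and 52.6 in iKO-labelled libraries. The lowest iKO-labelled library was far above the highest control. In CPM the means were 150.3 ± 17 and 252.3 ± 22.2 (SD, n = 3), a log2 fold change of 0.75 ± 0.108 (SE, edgeR adjusted p = 0.0027). It was called under every alternative setting run, with fold changes from 0.66 to 0.88. By mean FPKM in controls Col6a1 (33.5) came after Col3a1 (57.9), Col4a1 (44.9) and Col5a2 (39). In iKO-labelled libraries Col6a1 (56.9) and Col3a1 (54.4) were the highest, and their libraries overlapped.

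Col6a2 was at 8.53, 6.08 and 10.5 FPKM in controls and 11.1, 11.1 and 12.5 in iKO-labelled libraries. The groups did not overlap, but control 3 lay just under them. Its log2 fold change of 0.45 ± 0.186 had an edgeR adjusted p of 0.134. It passed the threshold without control 3 (0.0482), with no count filter (0.0215) and with a filter at 5 CPM (0.0429). Col6a3 was far lower, at 1.4, 0.881 and 0.359 FPKM in controls and 0.712, 1.02 and 0.632 in iKO-labelled libraries, which overlap widely (log2 fold change -0.18 ± 0.462, edgeR adjusted p = 0.838).

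Col6a1 (chr10:76708792-76726168) and Col6a2 (chr10:76595762-76623630) are neighbours on the minus strand of chromosome 10, 85161 bases apart, and Col6a3 lies at chr1:90765923-90843971. The other type VI genes, Col6a4, Col6a5 and Col6a6, had too few counts for a test. The summed type VI level was 249.6, 193.2 and 255.7 CPM in controls and 349.2, 383.1 and 346.4 in iKO-labelled libraries, with no overlap. Type VI genes had 1 rise of 3 tested (against 8.15% of all tested genes) and a median log2 fold change of 0.45.

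As a share of summed collagen FPKM, type VI went from 15.1% ± 0.783 in controls to 25.1% ± 1.59 in iKO-labelled libraries (SD, n = 3), and type V from 21.9% ± 0.563 to 14.8% ± 1.11. Every iKO-labelled library had more type VI than type V and every control had more type V than type VI. Fibrillar genes held 27.7% ± 1.16 and 26% ± 2.38, and type IV genes 22.2% ± 2.53 and 20.9% ± 2.19. Each of these 2 classes rests mainly on 1 gene. Col6a1 held 33.5 of a mean 42.8 type VI FPKM in controls and 56.9 of 69.3 in iKO-labelled libraries. Col5a2 held 39 of 62 type V FPKM in controls and 26.3 of 41.4 in iKO-labelled libraries. Shares of a total are bound to each other, since a rise in Col6a1 alone lowers all others.

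**Figure D3:**
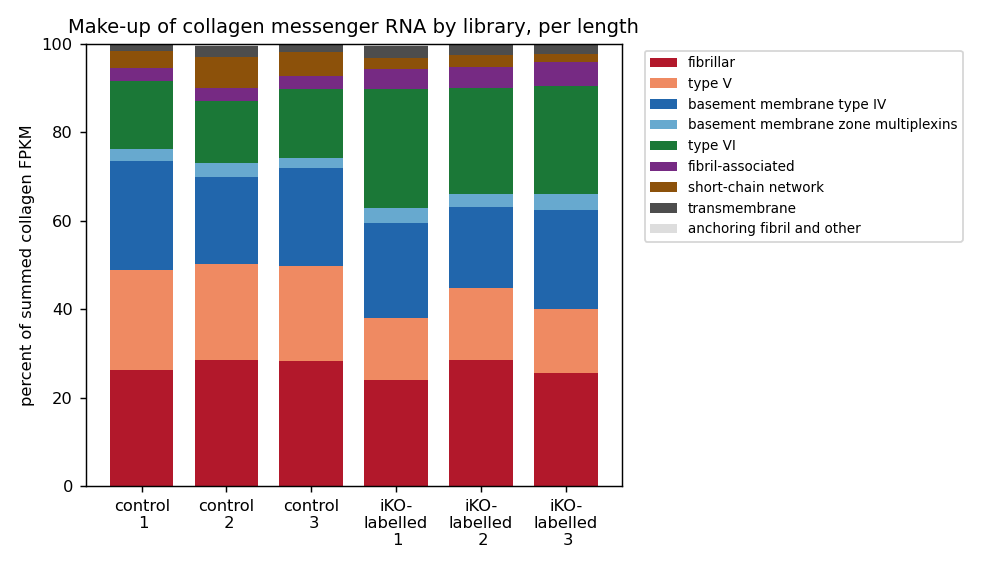
Share of the summed collagen FPKM (percent) held by each collagen class, with 1 stacked bar per library. The type VI band takes 14.2% to 15.7% in controls and 24% to 26.9% in iKO-labelled libraries, while the type V band takes 21.4% to 22.5% and 14.1% to 16.1%.

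Type IV collagen forms the network of the basement membrane on which satellite cells rest, and Col4a1 with Col4a2 encode its common form. Col4a1 was at 51.7, 34.6 and 48.6 FPKM in controls and 37.8, 39.5 and 38.8 in iKO-labelled libraries. The iKO-labelled libraries were tightly grouped between control 2 and the other controls. The log2 fold change was -0.23 ± 0.143 (edgeR adjusted p = 0.315), and without control 2 it was -0.39 with an adjusted p of 0.0217, so 1 library decided the call. Col4a2 was at 19.2, 14.8 and 17.7 FPKM in controls and 15.6, 16.5 and 21.2 in iKO-labelled libraries, interleaved, with a log2 fold change of 0.03 ± 0.15 (edgeR adjusted p = 0.923).

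The pair is divergent on chromosome 8, with Col4a1 at chr8:11198423-11312826 on the minus strand and Col4a2 at chr8:11312805-11449287 on the plus strand, and the genes overlap by 22 bases at their starts. Type IV chains of specialised membranes were low: Col4a5 had 0.687, 0.35 and 0.151 FPKM in controls and 0.639, 0.445 and 0.399 in iKO-labelled libraries. Col4a4, a chain of kidney and lung membranes, was at 0.207, 0.457 and 0.305 against 0.134, 0.203 and 0.113 FPKM, with no overlap and an edgeR adjusted p of 0.153. Col4a3 and Col4a6 overlapped between groups.

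None of the 6 type IV genes was called by edgeR, DESeq2 or limma-voom. At an unadjusted p under 0.05, edgeR gave 1, Col4a4. The summed type IV level was 505.9, 348.6 and 462 CPM in controls and 372.8, 392.8 and 416.5 in iKO-labelled libraries, which overlap, and the median log2 fold change was 0.16.

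Types XV and XVIII are proteoglycan collagens that tie basement membranes to the matrix around them. Col18a1, whose tail is the source of endostatin, was at 6.01, 7.43 and 6.3 FPKM in controls and 7.69, 8.47 and 8.58 in iKO-labelled libraries. The groups did not overlap, and the log2 fold change of 0.31 ± 0.126 had an edgeR adjusted p of 0.13, which became 0.0435 with library totals. Col15a1 was at 1.46, 0.394 and 0.801 FPKM in controls and 0.442, 0.726 and 0.951 in iKO-labelled libraries, overlapping (log2 fold change -0.35 ± 0.517, adjusted p = 0.705).

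Fibrillar collagens I and III are the bulk of interstitial fibrils and are made mostly by fibroblasts. Col3a1 was the highest collagen gene on average, at 50.9, 53.7 and 69.2 FPKM in controls and 50.5, 61.8 and 50.8 in iKO-labelled libraries. Apart from control 3 the groups were mixed, with a log2 fold change of -0.11 ± 0.128 (edgeR adjusted p = 0.629). Col1a1 was at 19.3, 12.8 and 12.8 FPKM in controls and 5.28, 19.2 and 11.9 in iKO-labelled libraries. Its spread among the iKO-labelled libraries was wider than the difference between groups (log2 fold change -0.32 ± 0.405, edgeR adjusted p = 0.65). Col1a2, the partner chain of type I, was at 5.41, 5.26 and 2.5 against 2.42, 4.57 and 4.34 FPKM, also mixed (log2 fold change -0.23 ± 0.335, edgeR adjusted p = 0.69).

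Col27a1, a fibrillar collagen best known from cartilage, was the fibrillar gene that rose. It had 158, 225 and 257 counts in controls and 553, 1001 and 579 in iKO-labelled libraries, or 0.523, 0.655 and 0.743 against 1.47, 2.58 and 1.78 FPKM. The lowest iKO-labelled library was well above the highest control. The level went from 8.53 ± 1.4 to 25.6 ± 7.6 CPM (log2 fold change 1.59 ± 0.26, edgeR adjusted p = 0.00463; chr4:63214004-63334991, plus strand), and the call held in every alternative run. Cartilage fibril genes were near the limit of detection: Col2a1 had 11, 1 and 4 counts against 26, 48 and 15, without overlap and without a call (edgeR adjusted p = 0.171). Col11a1 had 0 counts in controls 2 and 3, and Col11a2 had 10 to 64 counts a library.

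Of the 7 fibrillar genes tested 1 rose (against 8.15% of all tested genes), and none fell in edgeR, DESeq2 or limma-voom, or at an unadjusted edgeR p under 0.05. Their median log2 fold change was 0.05. The summed level was 728.1, 697.6 and 817 CPM in controls and 587.4, 837.6 and 663 in iKO-labelled libraries, which overlap.

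Fibril-associated collagens coat fibrils or sit in basement membrane zones and do not form fibrils themselves. Col19a1, first found in rhabdomyosarcoma cells, was at 2.84, 4.28 and 4.74 FPKM in controls and 7.31, 9.68 and 8.05 in iKO-labelled libraries. All iKO-labelled libraries exceeded all controls. It rose from 27.8 ± 6.73 to 58.2 ± 8.52 CPM (log2 fold change 1.06 ± 0.206, edgeR adjusted p = 0.00939; chr1:24261890-24587472, minus strand), and the call held in every alternative run.

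Col20a1, a little studied member of this class, was at 0.679, 0.569 and 0.243 FPKM in controls and 1.41, 2.07 and 2.82 in iKO-labelled libraries, without overlap. Its log2 fold change was 2.06 ± 0.464 (edgeR adjusted p = 0.017; chr2:180986535-181018363, plus strand). The call was lost without iKO-labelled 2 (0.0556) or 3 (0.0732). Exons of Col20a1 share 79 bases with another annotated gene on the same strand, so a small part of its counts is uncertain.

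Col16a1 was at 3.02, 0.393 and 2.25 FPKM in controls and 0.903, 1.25 and 0.859 in iKO-labelled libraries, where control 2 stood below all other libraries (log2 fold change -0.93 ± 0.616, edgeR adjusted p = 0.355). Without control 2 it was called lower (adjusted p = 0.0178). Col12a1, a collagen of tendon and muscle matrix, was at 1.06, 0.98 and 1.33 against 0.671, 1.09 and 1.01 FPKM, with overlap (edgeR adjusted p = 0.456). Col14a1 and Col22a1, the latter a marker of the myotendinous junction, had libraries at 0 or 1 count, and Col9a3 shares 234 exonic bases with Tcfl5 on the other strand. Of the 7 tested genes of this class 2 rose (against 8.15% of all tested genes) and none fell (against 12.3%), in edgeR, DESeq2 and limma-voom and at an unadjusted edgeR p under 0.05.

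Col8a1, a short-chain collagen that forms networks in vessel walls and the cornea, was at 11.1, 17.6 and 15.6 FPKM in controls and 6.33, 8.25 and 5.03 in iKO-labelled libraries. The groups did not overlap. It fell from 76.9 ± 16.8 to 33.8 ± 8.41 CPM, a log2 fold change of -1.19 ± 0.225 (edgeR adjusted p = 0.00859; chr16:57624258-57754737, minus strand). The call held in all alternatives run but log2(FPKM + 1) without a filter (0.0574). Its partner Col8a2 had 34, 25 and 8 counts against 4, 4 and 7 and was too low for a test, with the iKO-labelled libraries again below.

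Transmembrane collagens span the membrane of the cell that makes them. Col13a1, which helps to assemble the neuromuscular junction, had 28, 32 and 31 counts in controls and 3, 4 and 7 in iKO-labelled libraries. The controls lay close together and far above the others. It fell by 2.78 ± 0.757 on the log2 scale (edgeR adjusted p = 0.0357; chr10:61838236-61979108, minus strand). With so few counts the call was fragile: leaving out any library ended it, with adjusted p from 0.0689 to 0.138, as did limma-voom (0.0649).

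Col17a1, a component of hemidesmosomes, was the most abundant transmembrane collagen, at 2.92, 5.62 and 4.33 FPKM in controls and 6.61, 6.42 and 4.25 in iKO-labelled libraries. The third iKO-labelled library lay inside the control range, and the edgeR adjusted p was 0.339. Col25a1, which muscle needs for motor innervation, had 6, 2 and 4 counts against 13, 12 and 24, without overlap and without a call (edgeR adjusted p = 0.192). Col23a1, the anchoring fibril gene Col7a1 and Col26a1 overlapped between groups, with edgeR adjusted p of 0.926, 0.24 and 0.608.

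The 9 collagen genes too low for a test were Col6a4, Col6a5, Col6a6, Col8a2, Col9a1, Col9a2, Col10a1, Col24a1 and Col28a1, with at most 50 counts in any library. Col9a1, Col9a2 and Col10a1 are cartilage genes. At this depth a difference in them was not detectable.

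Trimers need their chains in set proportions, so the ratio of chains was taken per library from FPKM. The size of a ratio depends on the lengths used, annotated as 4380 bases for Col6a1 and 8326 for Col6a2. Without length scaling, mean control CPM were 150.3 for Col6a1 and 71.2 for Col6a2, and 100.5 for Col1a1 and 54.6 for Col1a2. The ratios are therefore no measure of chain balance, though their differences between groups do not depend on length. Col4a1 stood at 2.7, 2.33 and 2.74 times Col4a2 in controls and 2.43, 2.39 and 1.83 times in iKO-labelled libraries. Col6a1 stood at 4.08, 4.82 and 3.48 times Col6a2 in controls and 5.03, 5.61 and 4.22 times in iKO-labelled libraries. Both sets of values overlap between groups.

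Col1a1 stood at 3.7 ± 1.35 times Col1a2 in controls and 3.04 ± 1.04 times in iKO-labelled libraries (SD, n = 3). Col6a3 was at 0.0403, 0.03 and 0.00985 of Col6a1 in controls and 0.0128, 0.0164 and 0.012 in iKO-labelled libraries, so transcripts of the long chain were scarce in both groups. The ratio of Col5a1 to Col5a2 averaged 0.157 and 0.143, and that of Col3a1 to Col1a1 4.08 and 5.68, the last raised by 9.57 in iKO-labelled 1. All 6 ratios overlapped between groups. By two-sided exact permutation tests the p-values ran from 0.2 to 0.9, adjusted 0.72 to 0.9, where 3 against 3 libraries cannot go below 0.1.

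Several collagen genes are neighbours in the genome. Col3a1 and Col5a2 lie end to end on chromosome 1, 24614 bases apart, and Col5a2 fell while Col3a1 was at -0.11. Col6a1, Col6a2 and Col18a1 lie in a row on chromosome 10 and all had log2 fold changes above 0, from 0.31 to 0.75, with Col6a1 alone called. Of the 35 tested collagen genes 20 were above 0. The divergent pair Col4a3 and Col4a4, 71 bases apart, had log2 fold changes of 0.93 and -1.12, neither called.

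Collagen chains are hydroxylated, glycosylated and folded in the endoplasmic reticulum before export. Of 27 genes for these steps, all tested, 11 fell (against 12.3% of all tested genes) and none rose (against 8.15%). DESeq2 and limma-voom gave the same 11 and 0 by count. At an unadjusted p under 0.05, edgeR gave 1 higher. Their median log2 fold change was -0.26, and their summed level was 4253 to 4511 CPM in controls and 3298 to 3439 in iKO-labelled libraries, without overlap. This list and those below were chosen with earlier results of these data known, so their counts are no independent test.

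Colgalt1, which attaches galactose to hydroxylysine, was at 157.4, 157.4 and 171.5 CPM in controls and 95.7, 82 and 69.4 in iKO-labelled libraries (log2 fold change -0.98 ± 0.126, edgeR adjusted p = 0.00163). P4hb, the shared subunit of prolyl hydroxylases and itself a disulfide isomerase, was at 1083, 1184 and 1161 against 853.2, 874.1 and 858.8 CPM (-0.41 ± 0.0583, adjusted p = 0.00256). Fkbp10, a prolyl isomerase, went from 98.5 ± 5.46 to 54.4 ± 6.87 CPM. The lysyl hydroxylase gene Plod2 went from 98.1 ± 2.87 to 63.1 ± 4.9 CPM, and Kdelr2, a receptor that returns proteins to the endoplasmic reticulum, from 536.4 ± 8.11 to 382.9 ± 19.3 CPM. In these 5 genes no control overlapped an iKO-labelled library (39.8% of all tested genes did not overlap), and all alternatives run kept the calls. They were picked for the smallest adjusted p of their list, so this separation follows in part from that choice.

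The other falls in that list were Serpinh1 (the collagen chaperone HSP47), Plod3, P4ha1, P3h1, Mia2 and Kdelr3. Several of these proteins serve clients other than collagen. Sparc, a collagen-binding matrix protein, was level, at 441.7, 422.8 and 409.1 CPM in controls and 405.9, 437.2 and 415.8 in iKO-labelled libraries (log2 fold change -0.02 ± 0.0663).

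Outside the cell, propeptides are cut off and chains are cross-linked. Of 13 such genes 12 were tested. Falls numbered 3 (against 12.3% of all tested genes) and rises 0 (against 8.15%), and the median of the log2 fold changes was -0.67. No gene of this list was higher at an unadjusted edgeR p under 0.05, or by DESeq2, which called 5 lower, or by limma-voom, which called 3 lower. Loxl1, a lysyl oxidase, was at 73.5, 74.1 and 97.7 CPM in controls and 34.2, 24.5 and 32.1 in iKO-labelled libraries. The groups were far apart (log2 fold change -1.43 ± 0.177, edgeR adjusted p = 0.00129), and the call held in every alternative run.

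Lox, the founding lysyl oxidase, was at 547.8, 509.7 and 465.3 against 247, 361.6 and 359.4 CPM, without overlap (-0.65 ± 0.147, edgeR adjusted p = 0.017). That call was lost without control 1 (adjusted p = 0.0542), on log2(FPKM + 0.1) (0.0502) and on log2(FPKM + 1) without a filter (0.0951). Bmp1, which removes the C-propeptide, was at 45.6, 65.4 and 42.3 against 28.2, 29.6 and 35.5 CPM (-0.72 ± 0.195, edgeR adjusted p = 0.0357). The Bmp1 call was lost in 9 of 17 alternatives, among them those without control 2 (0.0976) or any iKO-labelled library (0.0601 to 0.115). Loxl2 (-1.08) and Adamts3 (-1.48) had edgeR adjusted p of 0.0839 and 0.104.

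Among 14 collagen receptor genes, 11 were tested, 1 rose (against 8.15% of all tested genes) and 2 fell (against 12.3%). By limma-voom 0 were higher and 3 lower. Ddr2, a receptor kinase for fibrillar collagen, was at 421.5, 392 and 357 CPM in controls and 222.8, 277.4 and 252.9 in iKO-labelled libraries, a clear separation (log2 fold change -0.64 ± 0.102, edgeR adjusted p = 0.00421). Itgb1, the shared beta chain of collagen-binding integrins, went from 966.7 ± 26.1 to 777.1 ± 69 CPM (-0.31 ± 0.0756, adjusted p = 0.0223). In 9 of 17 alternatives that call was lost. Ddr1 was at -0.42 ± 0.167 (adjusted p = 0.123). Antxr2 was at 224.4, 230.2 and 207.6 CPM in controls and 188.3, 191.3 and 163.3 in iKO-labelled libraries, without overlap. Its log2 fold change of -0.29 ± 0.0894 had an edgeR adjusted p of 0.0583. It was called lower by DESeq2 (adjusted p = 0.0435) and limma-voom (0.0492).

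Calcr, which binds type V collagen, was at 38.4, 34.4 and 57.8 CPM in controls and 54.3, 90.5 and 97.9 in iKO-labelled libraries. It rose by 0.89 ± 0.265 on the log2 scale (edgeR adjusted p = 0.0483), with iKO-labelled 1 inside the control range. The call was at the threshold and 8 of 17 alternatives ended it, with adjusted p up to 0.189. Its sign was thus opposite to that of Col5a2 and Col5a3.

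Of 23 regulators of collagen genes 22 were tested, 2 rose and 3 fell, close to the shares of all tested genes (8.15% and 12.3%). Prrx1, a homeobox factor of connective tissue, was at 84, 87.5 and 76.5 CPM in controls and 51.3, 46.4 and 52 in iKO-labelled libraries (log2 fold change -0.73 ± 0.111, edgeR adjusted p = 0.00336). Smad3, the TGF-beta effector, was at 149.2, 120.7 and 140.5 against 81.5, 109.5 and 72.9 CPM (-0.64 ± 0.161, adjusted p = 0.0275), and Mkl1, a partner of serum response factor, went from 21.1 ± 3.72 to 13 ± 0.276 CPM (-0.70, adjusted p = 0.0356). Ski, which restrains Smad proteins, was at 69.5, 63.4 and 63.2 against 93.4, 78.9 and 104.5 CPM (0.50 ± 0.127, adjusted p = 0.0277).

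Rbpj, the DNA-binding partner of Notch, was at 118.4, 100.9 and 110.8 CPM in controls and 156.8, 134.7 and 142.9 in iKO-labelled libraries (0.40 ± 0.101, edgeR adjusted p = 0.0273). No group overlapped in these 5 genes (39.8% of all tested genes did not overlap), which were picked for the smallest adjusted p of their list. Prrx1 alone kept its call in all 17 alternatives. Of the Notch targets in the list none was called: Heyl was at 0.94 ± 0.284 (adjusted p = 0.0515), Hes1 at 0.21 ± 0.185 (0.5) and Hey1 at -0.02 ± 0.176 (0.951).

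**Figure D4:**
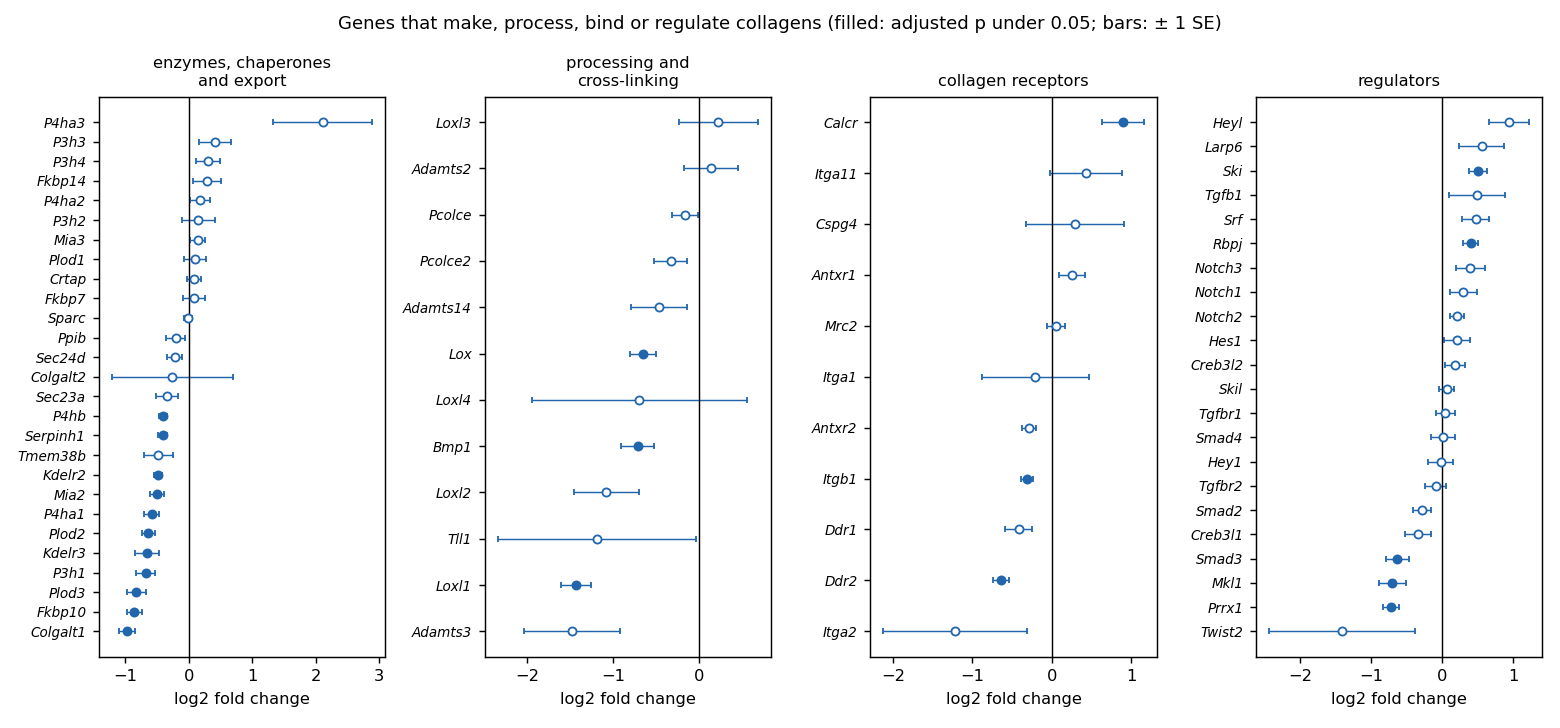
Log2 fold changes, iKO-labelled against control, of tested genes that fold and export collagen chains, process and cross-link them, bind collagen or regulate collagen genes, with bars of 1 standard error. Filled points passed an adjusted p of 0.05: all 11 in the first panel and all 3 in the second lie left of 0.

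Since fibroblasts, tendon cells and vessel cells make most muscle collagen, markers of other cells were read in the same libraries. Fibro-adipogenic progenitor markers summed to 309.9 to 500.1 CPM in controls and 328.2 to 441.8 in iKO-labelled libraries. Of 8 tested, edgeR called none (against 20.4% of all tested genes). An unadjusted edgeR p under 0.05 gave 1 higher, and so did DESeq2. Dcn, a proteoglycan of fibroblasts, was at 280.9, 193.3 and 128.4 against 123.8, 156.8 and 161.6 CPM. Tenocyte markers summed to 52.1 to 172.2 and 78.5 to 180 CPM, and endothelial markers to 70.7 to 255 and 124 to 146 CPM. No gene was called among 6 and 7 tested (against 20.4% of all tested genes). At an unadjusted p under 0.05, 1 tenocyte gene was lower, and none was called by DESeq2. So the sorted cells were not free of such transcripts, and these sums overlapped between groups.

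Mural cell markers summed to 219 to 320 CPM in controls and 102 to 118 in iKO-labelled libraries, without overlap. Of 5 tested, 1 was lower (against 12.3% of all tested genes). That gene was Acta2, smooth muscle actin, at 146.3, 255.6 and 189.8 against 44.8, 47.4 and 33.3 CPM (log2 fold change -2.24 ± 0.221, edgeR adjusted p = 0.000527). The other mural genes overlapped between groups, such as the pericyte gene Rgs5 at 88.6, 48 and 17.3 against 38.6, 47.4 and 68.7 CPM. Without Acta2 the mural sum overlapped, at 114.5, 64.7 and 29.2 CPM in controls and 57.6, 67.4 and 84.7 in iKO-labelled libraries. Acta2 moved in the same direction as Col5a2, Col5a3, Col8a1 and Loxl1, and its part in those results was not tested. The part of the cells behind the fibro-adipogenic, tenocyte and endothelial markers in Col1a1, Col1a2, Col3a1 and Col16a1 was likewise not tested. Immune markers summed to 115.3 to 184.3 CPM in controls and 101.3 to 200.1 in iKO-labelled libraries, Schwann markers to 15.6 to 35.1 and 13.1 to 25.5, and myofibre markers to 16.4 to 64.1 and 12.5 to 17.2, all overlapping. Among these, edgeR called 1 of 6 tested myofibre genes, the actin Acta1, lower (against 12.3% of all tested genes). None of the 8 immune and 4 Schwann genes tested was called. No marker of any of these lists was at 0 in every library.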

How the data were processed

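Satellite cell RNA of 3 control and 3 iKO-labelled libraries, grouped by title and genotype, was read from tables of raw counts per gene that the authors deposited. Per the submitters' processing notes, reads went through tools that include Trim Galore, STAR, Subread featureCounts and DESeq2 on mm10 (GRCm38), without versions. For annotation, strand setting and multi-mapped reads, nothing was given in the sources used here. Smart-Seq2 does not mark strand, so overlapping genes cannot be told apart in the bases they share. The deposited FPKM were scaled by the median-of-ratios size factors in place of library totals, as tested on 11966 genes.

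Of 46078 rows, 551 had no gene name (0.108% to 0.123% of counts) and were left out. Counts were fitted in R 4.3.3 with edgeR 4.0.16 (filterByExpr with a minimum count of 10, TMM, quasi-likelihood test, group as the only term), with Benjamini-Hochberg adjustment over 16252 genes and a threshold of 0.05. This called 1324 genes higher and 1991 lower. SE is the log2 fold change divided by the square root of F, and CPM use the TMM-scaled library size. Chain ratios were compared by exact permutation with scipy 1.17.1. Alternatives were DESeq2 1.42.0, limma-voom (limma 3.58.1), log2 FPKM, other scalings and filters, a replicate block and each library left out. Positions are from GENCODE M21, and promoters from RefSeq (35 of 44 members matched). All members with a call and the 3 highest of each class were named with values. So were, of each other list but the cell type markers, the 5 with the smallest adjusted p, plus Calcr, Itgb1, Ddr1 and Ddr2. Sparc, Heyl, Hes1, Hey1, Col8a2, Col25a1, Serpinh1 and others outside that rule were chosen after their values were seen. The members and lists were chosen with earlier results of these data known.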

Additional observations from a re-analysis of the deposited data

How the results depend on the processing

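Collagen rises (4 in the reported fit) ranged from 3 to 5 and falls (4) from 1 to 5 when each library was left out in turn. Falls numbered 2 on log2(FPKM + 1) with a mean of at least 1 FPKM, 1 on log2(FPKM + 0.1), 1 on log2(FPKM + 1) without a filter and 2 with library totals. Over all genes, rises (1324) ranged from 706 to 1159 and falls (1991) from 1347 to 1657 with a library left out, which also leaves fewer samples, and DESeq2 gave 2076 rises. Library totals moved the median log2 fold change of all genes by 0.13 and the share of calls that were higher from 39.9% to 57.2%. Summed levels of the fibrillar, type V, type IV, type VI and multiplexin groups stayed within 1 SD of their reported values in all settings run.

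A fit with the replicate number as a block gave 2 collagen falls, 3 rises and, over all genes, 813 higher and 1402 lower. Same-numbered libraries did not deviate together (correlations -0.0668, -0.00212 and -0.0593). Paired mice need not deviate together, so these values do not show whether the numbers mark pairs. The block ended the calls of Col5a3 (adjusted p = 0.0803), Col13a1 (0.105), Col20a1 (0.0611), Bmp1 (0.0775), Itgb1 (0.0686), Smad3 (0.0652), Ski (0.0627), Mkl1 (0.0882), Mia2 (0.0568) and Kdelr3 (0.111).

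Among uncalled genes the sign turned in a few settings. With each library left out in turn, log2 fold changes ran from -0.82 to 0.039 for Col1a1, -0.51 to 0.0020 for Col1a2, -0.21 to 0.046 for Col3a1, -0.12 to 0.12 for Col4a2, -0.079 to 0.97 for Col4a5, -0.54 to 0.34 for Col6a3, -0.62 to 7.77 for Col11a1, -0.40 to 0.86 for Col11a2, -0.43 to 0.62 for Col14a1, -0.69 to 0.23 for Col15a1 and -0.22 to 0.46 for Col23a1. The value of 7.77 (adjusted p = 0.0498) arose without control 1, where the remaining controls are at 0 counts, so its size depends on the fit and is no bound. Library totals gave 0.026 for Col3a1, and limma-voom gave 0.053 for Col6a3. Apart from the Col11a1 value, the cause was not tested. Over all single genes and alternatives, 771 values kept direction and side of the threshold, 92 lost the call and 13 gained one. Depth limits the genes with under about 50 counts a library.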
